A study of Caenorhabditis elegans with 4 samples.

Results

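The transthyretin-like genes of *C. elegans* are those whose symbol is ttr- followed by a number. The gene table lists 59 of them, 58 had at least 1 probe on the array, and 48 gave enough signal to be tested, out of 12823 genes tested in all. No probe name matched ttr-56, and ttr-4 is annotated as a pseudogene. Their expression was compared between low MV worms and high MV worms, where MV is the maximum velocity reached on a plate without food. All worms were of the wild-type strain N2, were grown at 20 °C, and were measured on day 7 to 8 of adulthood. Worms below 0.22 mm/sec formed the low MV group and the others the high MV group. Whole-body RNA of 2 samples per group was hybridized to 4 single-colour Agilent arrays. The sources do not say whether the samples of a group came from separate cultures, so each p below measures the spread between these samples, which may be technical. Since whole worms were used, a loss of cells of 1 type and a lower RNA content per cell cannot be told apart.

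Vertebrate transthyretin carries thyroid hormone and retinol-binding protein in blood. It belongs to an old protein family whose other members hydrolyse 5-hydroxyisourate, a product of uric acid breakdown. Nematodes carry, beside such enzymes, a large family of small secreted proteins with a related fold, and the ttr genes encode these. Few have a known role. TTR-52 binds phosphatidylserine on the surface of dying cells and links it to the engulfment receptor CED-1, TTR-33 protects dopamine neurons from oxidative damage, and TTR-11 takes part in the regrowth of injured axons.

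Of 43803 spots per array that were no controls, 84.58% to 87.71% exceeded their background well, and no spot was saturated. Every tested ttr gene was read from a probe well above background on all 4 arrays. The low MV arrays lay on 1 slide and the high MV arrays on another, with a scan each, so slide, scan and MV group cannot be told apart. High MV replicate 2 stood apart in sperm transcripts. Summed over 24 msp genes, which encode the major sperm protein, the linear signal was 14800 and 4530 in the low MV samples, against 14900 and 82600 in the high MV samples.

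More ttr genes were called lower than higher in low MV worms. Of the 48 tested genes, 17 were lower, 8 were higher, and 23 passed neither way. A gene was called where its Benjamini-Hochberg adjusted p from limma was under 0.05 and its absolute log2 fold change was above 0.58, that is 1.5-fold. The falls made up 35.4% of the tested ttr genes, whereas 17% of all genes tested were called lower. The rises made up 16.7%, and 21.8% of all genes were called higher. Together 52.1% of the ttr genes were called, beside 38.8% of all genes. The log2 fold changes of the ttr genes had a median of -0.23 and ranged from -2.85 to 1.44, and the median over all genes was 0.01. A fall of more than 2-fold was seen in 12 of the called ttr genes, and a rise of more than 2-fold in 3. When all 58 genes with a probe were tested with no filter on dim probes, 17 were lower and 7 higher.

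**Figure D1:**
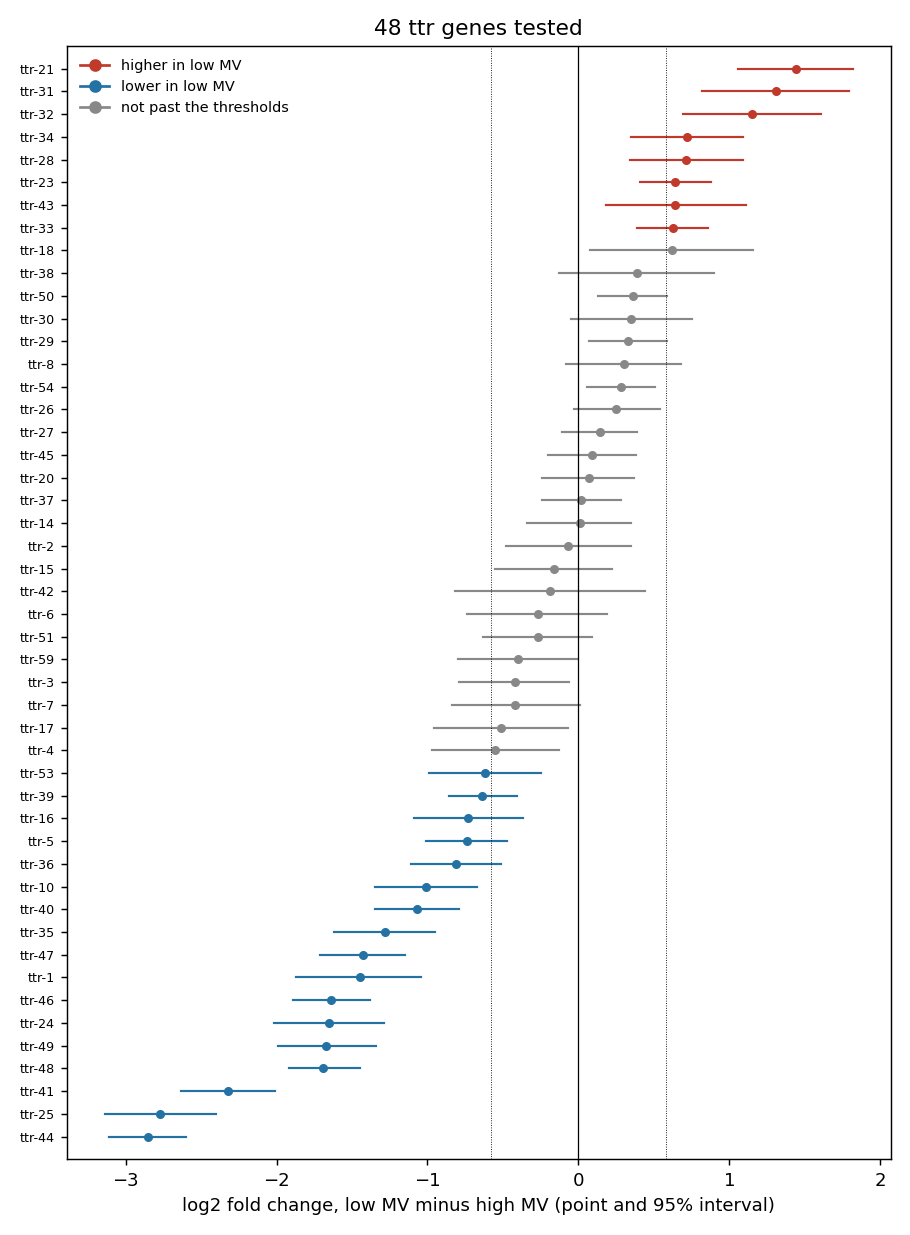
Log2 fold change of each of the 48 tested ttr genes, low MV minus high MV, on the horizontal axis, with genes down the page in order of fold change. Points are limma estimates, bars are 95% intervals and dotted lines mark 0.58 in each direction. The 17 genes called lower reach -2.85, whereas the 8 called higher reach 1.44.

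The median of the family depended on which high MV sample was used. Both low MV arrays lay below both high MV arrays for 23 ttr genes, or 47.9%, as they did for 41.2% of all genes tested. They lay above for 17, or 35.4%, against 42.2% of all genes, and the arrays overlapped for 8. Without high MV replicate 1, the median of the ttr genes was -0.46, with 22 called lower and 5 higher. Without high MV replicate 2, it was -0.04, with 15 called lower and 9 higher. The standard deviation between the samples of 1 group had a median over ttr genes of 0.0891 (log2) in low MV worms and 0.19 in high MV worms, and over all genes of 0.0657 and 0.105 in the same groups.

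**Figure D2:**
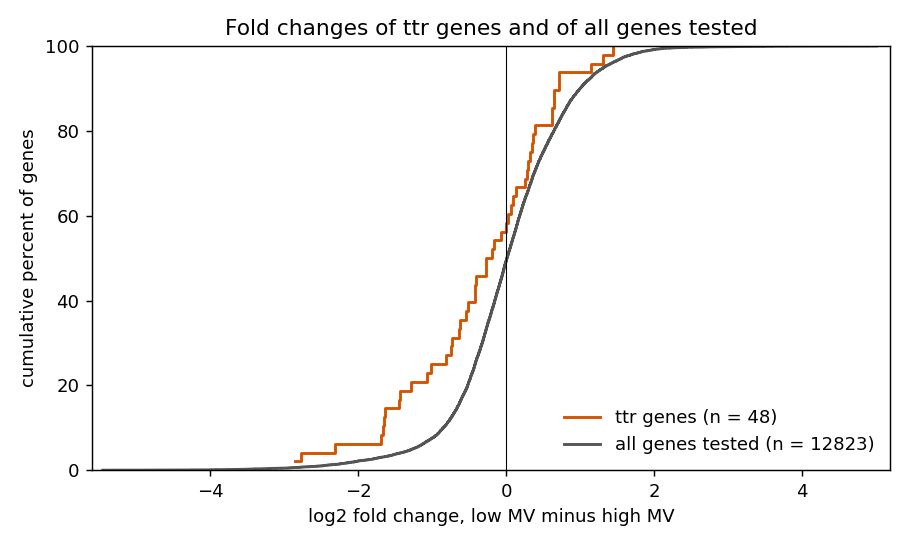
Cumulative percent of genes (vertical axis) at or below each log2 fold change, low MV minus high MV (horizontal axis), for the 48 ttr genes and for all 12823 genes tested. The curve of the ttr genes lies above that of all genes through most of the negative range, with medians of -0.23 and 0.01.

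The largest falls were those of ttr-44, ttr-25 and ttr-41. The log2 signal of ttr-44 (C56A3.2) was 8.29 and 8.15 in low MV samples, against 11.10 and 11.05 in high MV samples. That of ttr-25 (Y51A2D.10) was 9.56 and 9.21 in low MV samples and 12.10 and 12.20 in high MV samples. For ttr-41 (F10G7.11) it was 11.60 and 11.65 in low MV samples and 14.08 and 13.82 in high MV samples. In each of these genes the groups were separated by more than 2 log2 units, several times the distance between samples of 1 group. For ttr-44 the log2 fold change was -2.85 (limma, SE 0.10, adjusted p = 0.000456), a 7.21-fold lower signal in low MV worms. It was -2.77 for ttr-25 (SE 0.14, adjusted p = 0.000637) and -2.32 for ttr-41 (SE 0.12, adjusted p = 0.000637).

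A second set of ttr genes fell about 3-fold. The signal of ttr-48 (ZC64.2) was 10.52 and 10.55 in low MV samples, against 12.18 and 12.27 in high MV samples, that is, it fell by 1.69 on the log2 scale (SE 0.09, adjusted p = 0.000676). For ttr-49 (E02C12.13) it was 8.68 and 8.97 in low MV samples and 10.50 and 10.48 in high MV samples, a change of -1.67 (SE 0.13, adjusted p = 0.000931). The 3 probes of ttr-49 gave -1.67, -1.58 and -1.78, so the fall did not rest on 1 probe. The signal of ttr-24 (Y51A2D.9) was 11.09 and 10.86 in low MV samples and 12.49 and 12.77 in high MV samples, a change of -1.65 (SE 0.14, adjusted p = 0.00112). For ttr-46 (T07C12.7) the values were 12.29 and 12.45 in low MV samples and 13.99 and 14.03 in high MV samples, a change of -1.64 (SE 0.10, adjusted p = 0.00073). That of ttr-1 (K03H1.6) was 9.03 and 9.29 in low MV samples and 10.44 and 10.78 in high MV samples, a change of -1.45 (SE 0.16, adjusted p = 0.00184). In none of the 5 did the groups overlap, which was a condition for giving them here.

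The remaining 9 genes called lower were ttr-47, ttr-35, ttr-40, ttr-10, ttr-36, ttr-5, ttr-16, ttr-39 and ttr-53, with log2 fold changes between -1.43 and -0.62. In all 9 both low MV samples lay below both high MV samples. Of these, ttr-47 (H14N18.3) was the most changed, at 10.63 and 10.78 in low MV samples and 12.06 and 12.21 in high MV samples (log2 fold change -1.43, adjusted p = 0.000928). The 4 probes of ttr-36 (F22A3.7) ranged from -1.0 to -0.81. The smallest change was that of ttr-53 (T14G10.3), at 12.82 and 12.91 in low MV samples and 13.30 and 13.66 in high MV samples. Its log2 fold change of -0.62 (adjusted p = 0.0158) was -0.44 at the least with 1 sample left out, and the call was lost without low MV replicate 1 or high MV replicate 2. That of ttr-16 (Y5F2A.1), at -0.73, was lost without high MV replicate 2. Other processing mattered too. Of the 17 alternatives given below, ttr-53 kept its call in 10, and ttr-16 and ttr-39 in 13 each. The genes ttr-5, ttr-10, ttr-36 and ttr-40 kept theirs in 15 each, ttr-35 in 16 and ttr-47 in all.

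**Figure D3:**
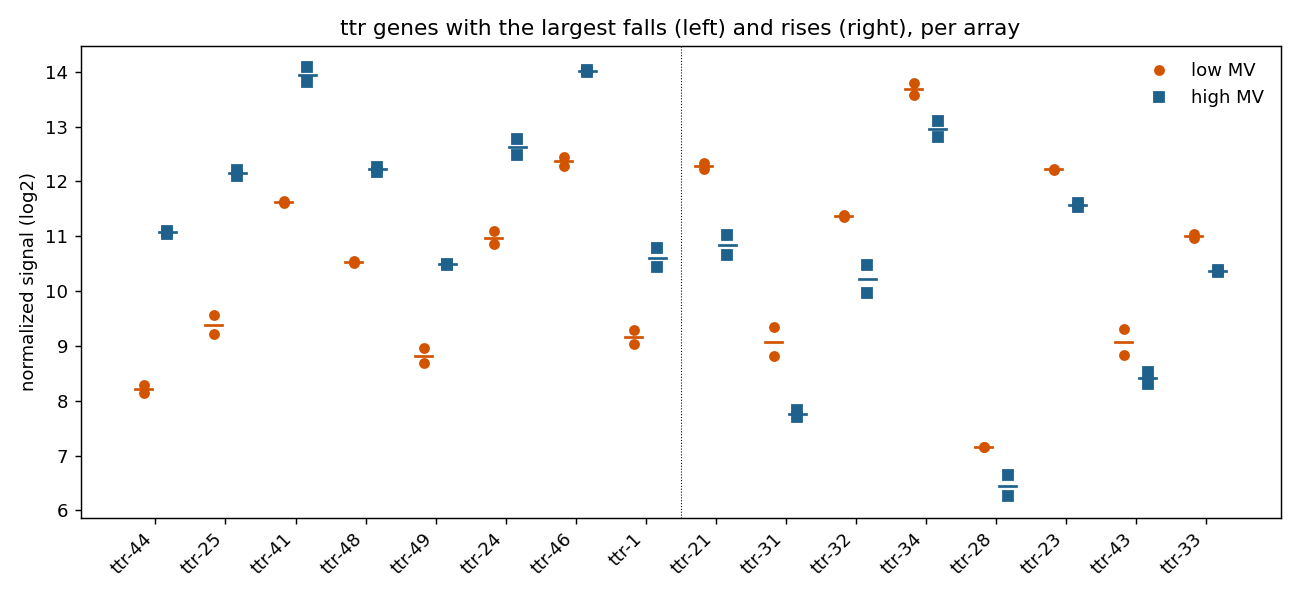
Quantile-normalized log2 signal (vertical axis) of the 8 ttr genes with the largest falls, left of the dotted line, and of the 8 called higher, right of it. Circles are the 2 low MV samples, squares the 2 high MV samples and short lines their means. Separate groups were a condition for choosing these 16 genes. The distance between the groups is largest for ttr-44, with a log2 fold change of -2.85.

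The genes called higher in low MV worms were ttr-21, ttr-31, ttr-32, ttr-34, ttr-28, ttr-23, ttr-43 and ttr-33, and only the first 3 rose by more than 2-fold. The signal of ttr-21 (F09F3.6) was 12.34 and 12.23 in low MV samples, against 10.66 and 11.03 in high MV samples, so that it rose by 1.44 on the log2 scale (SE 0.15, adjusted p = 0.00159). For ttr-31 (F58A3.5) it was 9.34 and 8.81 in low MV samples and 7.70 and 7.83 in high MV samples, a change of 1.31 (SE 0.19, adjusted p = 0.00376). That of ttr-32 (R13A5.3) was 11.35 and 11.38 in low MV samples and 9.96 and 10.47 in high MV samples, a change of 1.15 (SE 0.18, adjusted p = 0.00462). The gap between the groups exceeded the distance between samples of 1 group in each of the 3.

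The other 5 rises were smaller, between 0.63 and 0.72 on the log2 scale. The signal of ttr-34 (F09A5.9) was 13.57 and 13.79 in low MV samples, against 12.81 and 13.11 in high MV samples (log2 fold change 0.72, adjusted p = 0.0103). That of ttr-28 (R90.3) was 7.16 in both low MV samples and 6.26 and 6.64 in high MV samples (0.71, adjusted p = 0.011). It was the only tested ttr gene that passed the filter on dim probes through 1 group alone, since both high MV samples lay below the cutoff of 6.69. For ttr-23 (T21C9.8) the values were 12.23 and 12.21 in low MV samples and 11.54 and 11.61 in high MV samples (0.64, adjusted p = 0.00342). For ttr-43 (C14C10.7) they were 9.30 and 8.83 in low MV samples and 8.31 and 8.52 in high MV samples (0.64, adjusted p = 0.0305). Of the 17 alternatives given below, ttr-43 kept its call in 6, ttr-34 and ttr-28 in 11 each, and ttr-23 in 14. Calls of ttr-34, ttr-28 and ttr-43 also depended on a single sample. Without high MV replicate 1 the changes of ttr-34 and ttr-28 were 0.57 and 0.52, under the fold threshold, and that of ttr-43 was 0.54 (adjusted p = 0.125). Without low MV replicate 1 ttr-43 was at 0.41 (adjusted p = 0.111), and without high MV replicate 2 at 0.75 (adjusted p = 0.0658).

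The 23 tested genes that were not called had log2 fold changes from -0.55 to 0.62. The groups overlapped in 8 of them, namely ttr-2, ttr-6, ttr-14, ttr-15, ttr-20, ttr-37, ttr-42 and ttr-45. In 9 others both low MV samples were above both high MV samples, and in 6 both were below. Of the 23, 5 passed the adjusted p but not the fold threshold, namely ttr-3, ttr-4, ttr-29, ttr-50 and ttr-54. For ttr-3 and ttr-4 this held for the brightest probe, which had the smallest change. The other probe of ttr-3 gave -0.74, and the others of ttr-4 gave -0.61 and -0.71. With the mean of present probes ttr-4 was called lower. The largest change without a call was that of ttr-18 (B0334.1), at 11.83 and 11.57 in low MV samples and 10.79 and 11.36 in high MV samples. Its log2 fold change of 0.62 had a 95% interval of 0.08 to 1.16 (adjusted p = 0.0515), and the spread came mostly from the high MV samples. Leaving out low MV replicate 2 or high MV replicate 2 gave it a call. So did normexp background correction, the deposited log2 table (0.70) and a trended and robust variance prior. Without high MV replicate 1, ttr-3, ttr-4, ttr-7, ttr-17 and ttr-59 were called lower, ttr-4 also without low MV replicate 2. The call of ttr-38 as higher appeared without high MV replicate 2 and under 75th percentile scaling. Under 75th percentile and spike-in scaling ttr-17 was called lower as well.

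Of the genes that passed the adjusted p alone, ttr-50 (F58B3.9) was at 16.05 and 15.98 in low MV samples and 15.66 and 15.65 in high MV samples, so the groups were separate but the change of 0.36 was below the fold threshold. For ttr-45 (JC8.14), with 5 probes, the changes ran from -0.19 to 0.09. It was the only ttr gene whose present probes differed in sign, out of 12 genes with several present probes.

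Among the ttr genes with a known role, ttr-33 (C37C3.13) was called higher, while ttr-52 and ttr-11 gave too little signal to be tested. The signal of ttr-33 was 11.04 and 10.96 in low MV samples, against 10.35 and 10.39 in high MV samples, a log2 fold change of 0.63 (SE 0.09, adjusted p = 0.00377). Its other 2 probes gave 0.37 and 0.47 (adjusted p of 0.0656 and 0.0612 over all probes), so 1 probe of 3 carried the call. The call of ttr-33 was lost in 5 of 17 alternatives, with a change of 0.27 under spike-in scaling (adjusted p = 0.598), 0.45 under normexp, 0.52 in the deposited table and 0.49 as the mean of its probes, and at the 2-fold threshold. Of 5 genes that mark dopamine neurons, only 2 were tested. The gene cat-2 encodes the tyrosine hydroxylase that makes the dopamine precursor. Its signal was 6.86 and 6.83 in low MV samples and 6.47 and 6.45 in high MV samples. Its log2 fold change of 0.38 passed the adjusted p (0.0158, limma) but not the fold threshold. It passed the filter on dim probes through the low MV samples alone. The signal of bas-1, the decarboxylase that serves dopamine and serotonin, was 8.43 and 8.46 in low MV samples and 9.53 and 9.87 in high MV samples (-1.25, adjusted p = 0.00182).

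For ttr-52 (F11F1.7) all 6 probes lay below the cutoff, the brightest at 4.55 and 4.58 in low MV samples and 4.10 and 4.18 in high MV samples. Both low MV samples were above both high MV samples on each of the 6 probes, with differences of 0.43 to 1.24. With no filter, the brightest probe gave an adjusted p of 0.0351 at 0.43, which is under the fold threshold. For ttr-11 (F46B3.3) the brighter of 2 probes was at 3.15 and 3.64 in low MV samples and 3.83 and 3.94 in high MV samples (-0.49, adjusted p = 0.13 with no filter). The other untested genes with a probe were ttr-9, ttr-12, ttr-13, ttr-19, ttr-22, ttr-55, ttr-57 and ttr-58. With no filter, none of the 10 passed both thresholds on its brightest probe, the only one judged. On that probe ttr-19 and ttr-55 were not well above background on any array.

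All 16 genes of a list for phosphatidylserine exposure and cell corpse engulfment were tested. The list holds partners of TTR-52 such as ced-1 and nrf-5, and also genes of the parallel engulfment pathway such as ced-2, ced-5, ced-10 and ced-12. Of the 16, 2 were called higher and none lower, with a median log2 fold change of 0.13. Called genes made up 12.5% of the list, beside 38.8% of all genes. The 2 were dyn-1, the dynamin needed to engulf cell corpses, at 11.58 and 11.49 in low MV samples and 10.93 and 10.77 in high MV samples (0.69, adjusted p = 0.00431), and nrf-5. NRF-5 is a secreted lipid-binding protein that acts with TTR-52. Its gene was at 11.90 and 11.79 in low MV samples and 11.06 and 11.40 in high MV samples (0.62, adjusted p = 0.0152). The receptor gene ced-1, named here after its value was seen, was at 11.92 and 11.90 in low MV samples and 11.52 and 11.34 in high MV samples. Its change of 0.48 passed the adjusted p (0.0129) but not the fold threshold. With 1 sample left out, between 1 and 4 genes of the list were called, 1 without low MV replicate 1 or high MV replicate 1 and 4 without high MV replicate 2.

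The 2 genes for transthyretin-related 5-hydroxyisourate hydrolases, which carry no ttr symbol, both fell. The signal of R09H10.3 was 9.85 and 10 in low MV samples, against 12.13 and 12.08 in high MV samples, that is, it fell by 2.18 on the log2 scale (SE 0.10, adjusted p = 0.00061). That of ZK697.8 was 10.35 and 10.53 in low MV samples and 12.39 and 12.28 in high MV samples, a change of -1.90 (SE 0.11, adjusted p = 0.000694). Only ttr-44, ttr-25 and ttr-41 fell by more among the tested ttr genes.

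Many ttr genes lie next to one another in the genome, and neighbours did not always change alike. Among the tested genes, 23 stood in 13 pairs with no other protein-coding gene or pseudogene between them in the gene table. Some genes stood in more than 1 pair. Both genes were called lower in 3 pairs, namely ttr-24 with ttr-25, ttr-35 with ttr-36, and ttr-40 with ttr-49. No pair had both genes called higher, 7 had 1 gene called and 3 had none. In 9 of the 13 pairs both genes changed in the same direction. Neighbouring pairs over all genes were not counted, so whether these counts are particular to the ttr genes was not tested. In the run of ttr-24, ttr-25 and ttr-26, the first 2 fell by 1.65 and 2.77, whereas ttr-26 (Y51A2D.11) averaged 11.85 ± 0.07 in low MV samples and 11.60 ± 0.14 in high MV samples (SD, n = 2 each). Its change of 0.25 had a 95% interval of -0.03 to 0.54, and that of ttr-25 ran from -3.14 to -2.40. Likewise ttr-1 was at -1.45, while its neighbour ttr-2 (K03H1.4) was at -0.07, with an interval of -0.48 to 0.35. Whether probes of similar neighbours read each other's transcripts was not tested, and 21 of the 25 called genes rest on a single present probe.

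**Figure D4:**
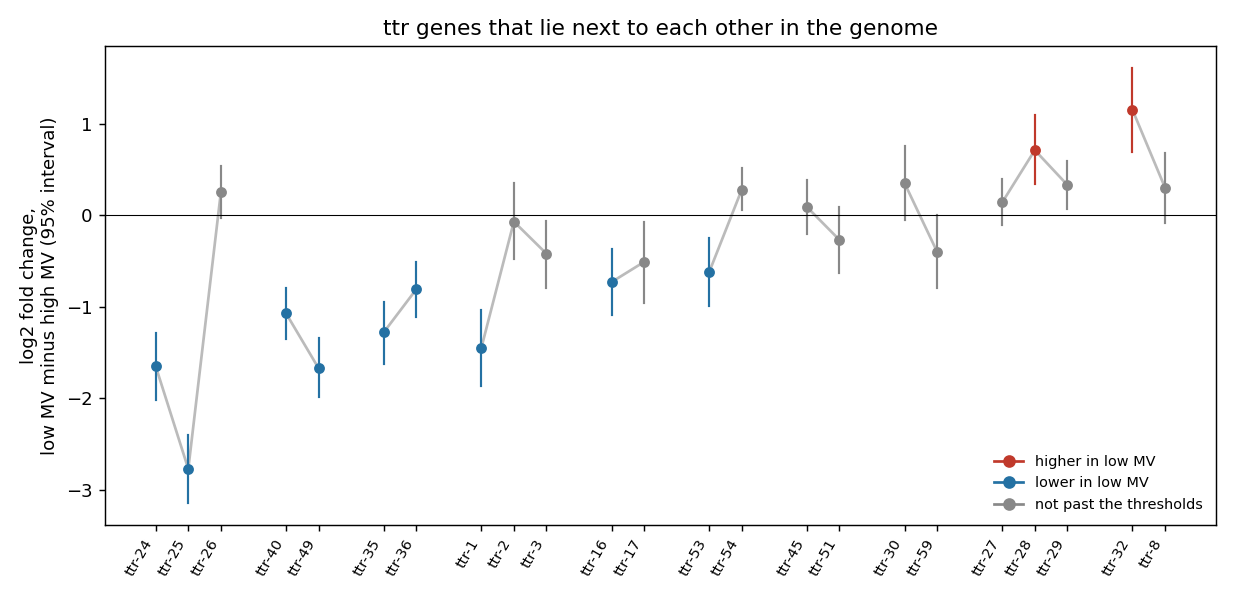
Log2 fold change, low MV minus high MV (vertical axis), of the 23 tested ttr genes that lie next to another tested ttr gene. Grey lines join neighbours, and bars are 95% intervals from limma. In the run of ttr-24, ttr-25 and ttr-26 the values are -1.65, -2.77 and 0.25.

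Markers of several tissues also differed between the groups, and their part in the changes of the ttr genes was not tested. Each count below stands beside the 21.8% of all genes called higher, the 17% called lower and the 38.8% called either way, and several lists hold few genes. Of 19 tested genes for molting and furrow cuticle, 13 were called higher and none lower (median log2 fold change 1.58), among them the collagen genes sqt-1, rol-6 and dpy-2 at 3.66, 2.78 and 2.01 and mlt-11, a protease inhibitor gene needed for molting, at 2.11. Of the 13, sqt-1, rol-6 and dpy-9 passed the filter on dim probes through the low MV samples alone, where they were high. In high MV samples sqt-1 was at 4.27 and 3.85, rol-6 at 4.87 and 4.69, and dpy-9 at 6.64 and 6.60. The summed linear signal of all 19 genes was 85000 to 100000 in low MV samples and 74100 to 80900 in high MV samples. By far the brightest of the 19 was sqt-3, at 15.53 to 15.96 (log2), and it was not called (-0.20). It is 1 of 4 genes of the list with a negative change. Of 6 epidermis genes, 3 were higher (rol-6, dpy-7 at 1.75 and elt-1 at 0.65) and col-19, an adult collagen gene, was lower, at -3.57. The epidermis list shares 2 genes with the molting list, and for rol-6 the same limit of the filter holds.

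Of 7 body wall muscle genes, 5 were called lower and none higher, with tnt-2 at -2.46, unc-27 at -2.29, unc-15 at -1.43 and unc-54, a myosin heavy chain gene, at -1.24. Their summed signals were 8200 to 10400 in low MV samples and 15800 to 16300 in high MV samples. All 3 tested pharynx genes were called higher, with tnt-4 at 2.04, pha-4 at 1.27 and tnc-2 at 1.25, and myo-1, myo-2 and ceh-22 were not present. The pharynx sums were 5060 to 5460 in low MV samples and 1810 to 2430 in high MV samples. The glia genes daf-6, kcc-3 and fig-1, all that were tested, were higher at 1.23, 0.96 and 0.72 (874 to 875 in low MV samples, 434 to 470 in high MV samples). Of these, daf-6 passed the filter on dim probes through the low MV samples alone, at 6.06 and 6.48 in high MV samples. Of 10 neuron genes, 5 were higher and none lower, with sbt-1 at 1.03, egl-3 at 0.98, ida-1 at 0.95 and unc-64 at 0.65 (54800 to 58500 in low MV samples, 44000 to 45700 in high MV samples). The 8 intestine genes went both ways. While ges-1, vha-6 and cpr-1 were called lower, at -1.56, -0.65 and -0.58, the other 5 were not called and had positive changes of 0.31 to 1.1. The intestine median was 0.31, 37.5% of the list was called, and the sums overlapped (142000 to 184000 in low MV samples, 174000 to 212000 in high MV samples). The 12 oocyte genes lay between -0.56 and 0.39, within the fold threshold, with summed signals of 791000 to 793000 in low MV samples and 822000 to 932000 in high MV samples. Of 4 tested early embryo genes, tbx-37 and tbx-38 were higher, at 0.84 and 0.61, and pes-10 and end-3 lower, at -0.79 and -0.66. Of 2 coelomocyte genes, cup-4 was lower, at -0.76, whereas unc-122 went the other way, at 0.37, and was not called.

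Over 17 alternatives, ttr-25, ttr-41, ttr-44, ttr-46, ttr-47, ttr-48 and ttr-49 kept their call in all. None of the 8 genes called higher did, but 5 of them changed by less than 2-fold and so could not pass the alternative with a 2-fold threshold. The calls of ttr-21 and ttr-31 were lost only under a part of the study's test, with adjustment over all genes. This part compared the group means and left out the study's median ratio test and permutation null. The call of ttr-32 was lost under the same part and under spike-in scaling. The full test of the study was not run, so whether these calls pass it was not tested. No called ttr gene changed sign. Scaling to the signal of 8 spike-in probes moved the median of all genes to -0.38 and that of the ttr genes to -0.63, with 2 called higher, ttr-21 and ttr-31, and 17 lower. Relative to the median of all genes the ttr median was thus still negative. The changes of ttr-34, ttr-23 and ttr-33 were 0.07, 0.13 and 0.27 under that scaling. With normexp background correction, whose offset of 50 shrinks the changes of dim spots by construction, ttr-44 was at -1.92 and ttr-28 at 0.19.

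**Figure D5:**
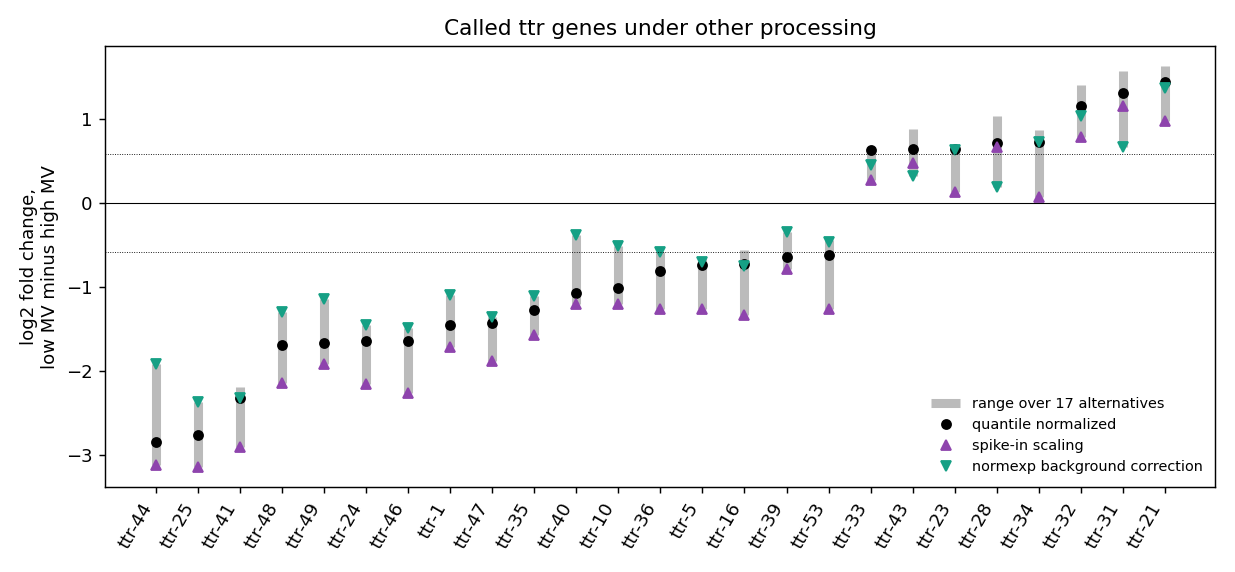
Log2 fold change, low MV minus high MV (vertical axis), of the 25 called ttr genes under the processing used here (black circles), spike-in scaling (upward triangles) and normexp background correction (downward triangles). Grey bars span the 17 alternatives, of which those that change only the test or the threshold leave the value as it is. Every grey bar stays on 1 side of 0.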

How the data were processed

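For every spot the authors deposited a background-corrected intensity, median pixel values inside and around the spot, and flags. Their deposited log2 values equal the quantile-normalized log2 median brightness to within 5e-09 and served as an alternative.

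The log2 intensity of non-control spots was quantile normalized. Probes with outlier flags, 62 in all, were left out. A probe was present where its signal was above the crossing of a mixture of 2 Gaussian curves (6.69, mclust 6.1.1) in both arrays of a group. Probe names were matched to the RefSeq table of WBcel235, for names and neighbours only. Of 28477 names, 22719 matched, 619 were kept as sequence names and 5139 gave no gene. The brightest present probe stood for a gene.

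Low MV was set against high MV by limma 3.58.1 (R 4.3.3), with Benjamini-Hochberg adjustment over 12823 genes. In a simulation on 12823 genes, 200 of them changed, 52% of changes of 1 and 90% of changes of 2 (log2) were recovered, with 6 false calls. Its noise was independent between genes and held no slide effect. Since 4976 genes were called in the data, these rates need not hold for them. Exact permutation of 2 against 2 arrays gives no p under 0.333. Figures were drawn with matplotlib 3.10.9 in Python 3.11.15.

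Given sample by sample are ttr-52, ttr-33, ttr-11, the 8 largest rises and 8 largest falls among called genes with separate groups and probes well above background, and other genes where a count or call turned on them, chosen after their values were seen. Of each comparison list, called genes are named, at most 4, with dpy-9 added for the filter on dim probes. Members, lists and the spike-in scaling were chosen with earlier results of these data known.

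The alternatives changed the scaling (75th percentile, spike-in probes, deposited log2 table), the background correction, the filter on dim probes, the choice of probe, the variance prior, the threshold, the test, the replicate block or the samples, 1 at a time. A restriction to probes well above background on all 4 arrays was added after the data were seen, and changed no ttr call.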

Additional observations from a re-analysis of the deposited data

How the results depend on the processing

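The count of ttr genes higher in low MV worms, 8, was 2 under spike-in scaling, 3 at a 2-fold threshold, 5 by the methods' t-test unadjusted, 2 by that test after Benjamini-Hochberg adjustment, and 5 to 9 with 1 sample left out. The count of lower genes, 17, was 8 by the adjusted t-test and 15 to 22 with 1 sample left out. The ttr median of -0.23 moved to -0.63 under spike-in scaling and lay between -0.46 and -0.04 with 1 sample left out. The 2 called engulfment genes became 0 under spike-in scaling, at 2-fold and by the adjusted t-test, 1 under normexp and by the unadjusted t-test, and 1 to 4 with 1 sample left out. The 13 molting genes called higher became 5 by the adjusted t-test. The causes were not tested, apart from the shift of all genes under spike-in scaling, by -0.39, and the stricter threshold. Over all genes, 2795 higher and 2181 lower became 957 and 2901 under spike-in scaling, 1531 and 1297 under normexp, 1280 and 918 at 2-fold, and 804 and 767 by the adjusted t-test.

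The replicate numbers do not pair the samples by any label, and same-numbered samples did not deviate together (r = -0.03 across genes, which are not independent replicates). With the replicate number as a block, 8 ttr genes were higher and 17 lower, the same 25 genes. The slide could not be a block, since each group lies on 1 slide. The number of samples, 2 per group, limits every p above.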
